A study of Drosophila melanogaster with 288 samples.

Results

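The muscle contractile apparatus genes described here are 35 genes of Drosophila melanogaster that encode the proteins of the sarcomere, its anchoring structures and the calcium handling of muscle. They were chosen by name, with no threshold on any measured value, but with earlier results of these data known. All 35 were found among the 17698 genes of the deposited count table. They comprise 6 thick filament genes, 14 thin filament genes, 4 genes for giant and kinase-domain proteins, 9 genes for Z-disc, cytoskeletal and attachment proteins, and 2 calcium handling genes. Of these, 33 passed the filter on low values (a mean above 1 cpm, the counts of a gene per 1e6 counts on protein-coding genes of the embryo) and were tested among 9606 genes. The remaining pair, Act88F and fln, stayed below it, and a gene passes such a filter more easily when it is high at any age.

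The data are from 288 single whole embryos of strain W1118. BRB-seq tags transcripts with a sample barcode during reverse transcription from the poly(A) tail, so that embryos can be pooled early and reads come from 3′ ends. No treatment was compared and all embryos share this genetic background. They differ by age, given as 8 windows of hours after egg laying from 2-3h to 23-24h, and by sequencing library (E1_1, E1_2, E2 and E3). Of the 250 samples that had at least 300000 counts on protein-coding genes and 4500 detected genes, 97 fell into a small cluster set apart in a multidimensional scaling and were left out. The study's methods also leave out such a cluster, but its boundary was set here, so both sets of samples need not be identical. The 153 embryos used were 11 at 2-3h, 24 at 5-6h, 27 at 8-9h, 14 at 11-12h, 21 at 14-15h, 18 at 17-18h, 24 at 20-21h and 14 at 23-24h, with 377740 to 24787342 counts each and a median of 6072822. No embryo of 23-24h came from libraries E1_1 or E1_2, and each age is a set of different embryos, so a change with age is a difference between embryos and not a course within one.

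Some embryos went against their labels. Over the genes that are no members, 119 of the 153 embryos were closest to the mean profile of their own age, and 34 to that of another age. Of the 34, 22 lay 1 window away, but 1 embryo of 2-3h was nearest to 17-18h, 1 of 2-3h to 11-12h, 2 of 5-6h to 14-15h, 4 of 20-21h to 2-3h and 2 of 23-24h to 2-3h. Among the last of these, replicates 22, 25 and 37 of 20-21h had 632569, 377740 and 722986 counts and 4600, 4509 and 5461 detected genes. Replicates 20 and 43 of 23-24h had 467513 and 1009240 counts, whereas replicate 14 of 20-21h had 4535761. Whether low depth placed such samples near 2-3h was not tested. The counts of members called, the changes of the members named and the correlations were therefore recalculated for the 119, called own-age embryos here, and are given where they differ. For 1 further sample, replicate 1 of 20-21h, the labels give 2 different ages; its profile was nearest to 20-21h. The summed level of the marker genes ftz, eve and sna, which pattern the early embryo, had a median of 61.9 cpm at 2-3h, 63.2 cpm at 8-9h and 2.69 cpm at 20-21h. The maternal transcripts bcd and osk summed to a median of 5.15 cpm at 2-3h and 3.42 cpm at 20-21h, where 1 embryo had 204 cpm. The neuronal markers elav, brp, nSyb and Syt1 summed to a median of 55.8 cpm at 2-3h, 222 cpm at 14-15h and 68.4 cpm at 17-18h, so that no sum moved in 1 direction over all ages, and these lists were used for nothing else.

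In a sarcomere, myosin thick filaments slide along actin thin filaments that are anchored at the Z-disc. Calcium released from the sarcoplasmic reticulum binds troponin C, and the troponin and tropomyosin strand then uncovers the myosin sites on actin. Giant proteins of the titin family tie the filaments to the Z-disc and to the midline of the sarcomere, and integrin-linked attachments pass the force to tendon cells. In the fly embryo, myoblasts fuse into the larval body wall muscles around the middle of embryogenesis, and these muscles contract before hatching. Many sarcomere proteins have paralogs, some used in the larva and others in the flight and leg muscles of the adult.

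The members were low in most embryos up to 8-9h, rose between 8-9h and 14-15h, were highest at 17-18h and had lower medians again at 20-21h and 23-24h. The summed level of the 35 members had a median of 1540 cpm at 2-3h, 1644 cpm at 5-6h and 2712 cpm at 8-9h. It was 18116 cpm at 11-12h, 68927 cpm at 14-15h and 90561 cpm at 17-18h, so that the members made up 9.06% of the counts of the median embryo at that age. It was then 61077 cpm at 20-21h and 41154 cpm at 23-24h. Embryos spanned 6057 to 35734 cpm at 11-12h and 38852 to 106780 cpm at 14-15h, so these 2 ages did not overlap, whereas 14-15h, 17-18h, 20-21h and 23-24h overlapped. In whole embryos, a larger number of muscle cells and more RNA per muscle cell cannot be told apart.

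**Figure D1:**
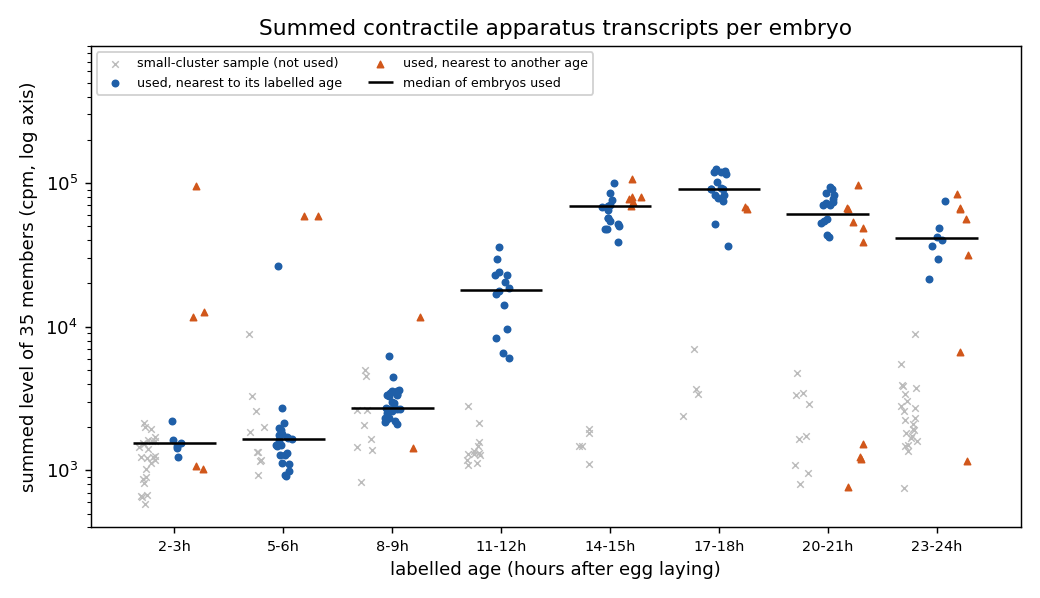
Summed level of the 35 members in each sample that passed the limits (log axis, cpm) by labelled age. Blue circles are embryos nearest to their labelled age, orange triangles embryos nearest to another age, grey crosses small-cluster samples that were not used, and black lines medians of the embryos used. The line climbs from 1540 cpm at 2-3h to 90561 cpm at 17-18h, while the grey crosses stay between 584 and 8875 cpm at every age.

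Some embryos that stood apart from their label did so in the members too, and others did not. At 2-3h, 3 of the 11 embryos had summed levels of 11643, 12548 and 95440 cpm, and the others did not exceed 2214 cpm. At 5-6h, 3 of the 24 embryos had 26352, 58933 and 59288 cpm, and the others did not exceed 2725 cpm. Of these 6, 1 at 2-3h was nearest to 5-6h and the 1 with 26352 cpm was nearest to its own age, 5-6h. At 20-21h the 4 embryos nearest to 2-3h had between 764 and 1514 cpm, whereas the 14 embryos nearest to their own age had between 42049 and 94493 cpm. Replicate 20 of 23-24h, nearest to 2-3h, had 6661 cpm. By contrast, replicates 27 and 35 of 2-3h, nearest to 5-6h, had 1025 and 1077 cpm. Replicates 1 and 20 of 17-18h, nearest to other ages, had 65799 and 68027 cpm. These lay within the 36379 to 124635 cpm of the own-age embryos of 17-18h. The 97 small-cluster samples had a median of 1603 cpm, and by age their medians ran from 1246 cpm at 2-3h to 3553 cpm at 17-18h.

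Neighbouring ages were compared with edgeR's quasi-likelihood test with library as a covariate, and a gene was called at a Benjamini-Hochberg adjusted p under 0.05 and a change of at least 2-fold. From 8-9h to 11-12h, 24 of the 33 members were called higher, against 15.2% of all genes tested, and 1 lower, against 6.85%. From 11-12h to 14-15h, 27 were called higher, against 20.5% of all genes, and 0 lower, against 7.9%. At the latter step 1 member was lower at an unadjusted p under 0.05, and DESeq2 called 0 and limma 1. The median log2 fold change of the members was 1.98 at the first and 2.00 at the second of these steps, beside −0.02 and 0.00 over all genes. In total 21 members were called higher at both steps, and the share of all genes called at both was not calculated. With own-age embryos only 24 (17.1% of all genes) and 26 (15.9%) were called higher, and all of these had also been called with the 153. Within each of the 4 libraries, between 24 and 31 of the 33 members had a higher median at the later age of either step.

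From 14-15h to 17-18h, 1 member was called higher (1.7% of all genes) and 0 lower (2.81% of all genes; 0 members at an unadjusted p under 0.05 and 0 by DESeq2 or limma). With own-age embryos, 6 were called higher, against 10.1% of all genes. From 17-18h to 20-21h, 6 were called lower (5.22% of all genes), beside 7 by DESeq2, 19 by limma and 1 with thinned embryos, and 0 higher (12.4%; 1 member at an unadjusted p under 0.05, 0 by DESeq2 and 0 by limma). The shares of all genes called by DESeq2, by limma or with thinned embryos are not given here. Own-age embryos gave 12 lower calls at this step, which contained the 6, against 8.57% of all genes. From 20-21h to 23-24h, 1 was called lower (1.57%) and 0 higher (1.29%; 0 members at an unadjusted p under 0.05, and 0 by DESeq2 or limma). The median log2 fold change of the members was 0.30, −0.70 and −0.46 at these 3 steps, beside −0.15, 0.21 and −0.09 over all genes. In the libraries with at least 2 embryos on either side, 27 to 31 members had a lower median at 20-21h than at 17-18h, and 28 to 29 a lower median at 23-24h than at 20-21h.

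**Figure D2:**
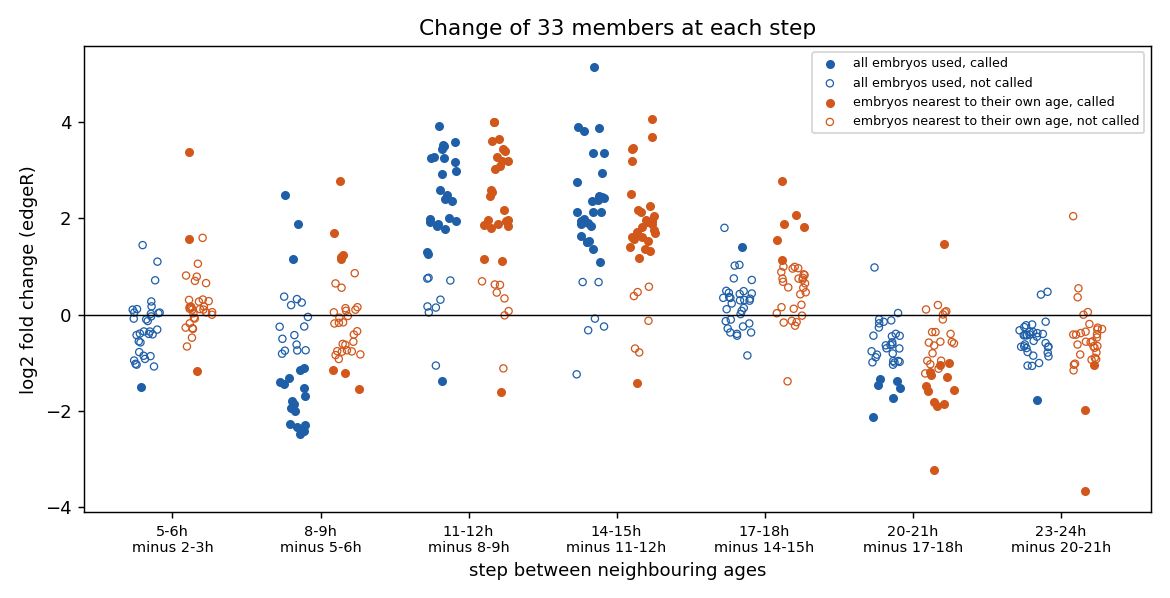
Log2 fold change of the 33 tested members at each step between neighbouring ages in the edgeR fit, for all 153 embryos used (blue) and for the 119 nearest to their own age (orange). Filled points were called. Most filled points lie above 0 at the 11-12h and 14-15h steps with either set of embryos, with Act87E below 0 at 11-12h in both sets and kon at 14-15h among the orange ones, while the 16 filled blue points below 0 at the 8-9h step are 3 among the orange ones.

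Of the calls from 5-6h to 8-9h, most of the lower ones were not made with own-age embryos, whereas the 3 higher ones, Act79B, kon and RyR, were made with both sets. From 5-6h to 8-9h, 16 members were called lower (17.2% of all genes) and 3 higher (11.3%), with a median log2 fold change of −0.81 beside −0.21 over all genes. With own-age embryos only, 3 were called lower (16.6%) and 5 higher (14.6%), and the median was −0.17 beside −0.18 over all genes. The medians over embryos went the other way. Within each of the 4 libraries, 28 to 30 of the 33 members had a higher median at 8-9h than at 5-6h, by a median of 0.28 to 1.21 on the log2 scale beside 0.05 to 0.45 over all genes. The 3 members still called lower, Mf, Mp20 and TpnC25D, come from a set that keeps the 5-6h embryo with 26352 cpm. From 2-3h to 5-6h, 1 member, Zasp66, was called lower (5.76%) and 0 higher (1.27%; 1 member at an unadjusted p under 0.05, 0 by DESeq2 and 1 by limma). Own-age embryos gave 2 higher calls, Act87E and kon, against 6.36% of all genes, and 1 lower call, Tm1, against 8.67%.

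Among the thick filament genes, all 5 that were tested rose. Mhc, the gene for muscle myosin heavy chain (chromosome 2L, 16766566 to 16788766 in BDGP6.54), changed most between neighbouring ages at the 11-12h step. Mhc had medians of 21.5, 17.2, 21.9 and 307 cpm at 2-3h, 5-6h, 8-9h and 11-12h, with embryos from 7.16 to 508, 3.54 to 827, 5.07 to 177 and 37.7 to 1348 cpm. Mhc then had medians of 1681, 1975, 434 and 408 cpm at 14-15h, 17-18h, 20-21h and 23-24h, with embryos from 159.9 to 2905, 266 to 4031, 5.29 to 4270.4 and 22.8 to 1022 cpm. The medians up to 8-9h lay between 17.2 and 21.9 cpm, and the highest embryos of these ages, which include those named above, reached into the range of 11-12h. Mhc was called higher from 8-9h to 11-12h, at an estimated log2 change of 3.92 ± 0.47 SE (adjusted p = 1.57e-11). Mhc was called lower from 17-18h to 20-21h, at an estimated log2 change of −1.46 ± 0.44 SE (adjusted p = 0.00961). With own-age embryos the latter was −1.87 ± 0.35 SE (adjusted p = 1.42e-05).

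Mlc2, the regulatory light chain of myosin, had the highest mean cpm of the members, on a scale that is not corrected for length. Mlc2 had medians of 289, 263, 372 and 3154 cpm at 2-3h, 5-6h, 8-9h and 11-12h, with embryos from 156 to 30263, 142 to 12967, 168 to 2105 and 851 to 8751 cpm. Mlc2 then had medians of 15909, 21819, 18348 and 12075 cpm at 14-15h, 17-18h, 20-21h and 23-24h, with embryos from 10541 to 26629, 8358 to 37957, 119 to 34241 and 311 to 23374 cpm. Its ranges at 11-12h and 14-15h did not overlap, and at 17-18h the lowest embryo was at 8358 cpm. Mlc2 was called higher from 8-9h to 11-12h, at an estimated log2 change of 3.16 ± 0.46 SE (adjusted p = 1.27e-08). Unlike Mhc, it was not called lower at 20-21h, where its log2 fold change was −0.27 ± 0.46 SE (adjusted p = 0.724). Mlc1, the alkali light chain, had a median of 72.4 cpm at 5-6h and 6720.3 cpm at 17-18h. Mlc1 was called higher from 8-9h to 11-12h, at an estimated log2 change of 3.45 ± 0.50 SE (adjusted p = 1.49e-08).

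Prm encodes paramyosin, the core of the thick filament, and Mf encodes myofilin, a protein of the same core. Prm had medians of 14.6, 98.9 and 1133 cpm at 8-9h, 11-12h and 17-18h, and the gene was called higher from 8-9h to 11-12h with an estimated log2 change of 3.25 ± 0.44 SE (adjusted p = 1.69e-09). Mf had medians of 24.2, 23.7, 25.7 and 88.7 cpm at 2-3h, 5-6h, 8-9h and 11-12h, with embryos from 12.8 to 863, 10.1 to 679.8, 8.64 to 51 and 18.7 to 461 cpm. Mf then had medians of 1334, 2547, 1556 and 1313 cpm at 14-15h, 17-18h, 20-21h and 23-24h, with embryos from 339.8 to 3972, 1089.8 to 5230, 10.6 to 4325 and 100.1 to 2712 cpm. Mf thus rose later than Mhc: its median at 11-12h was 3.48% of its highest median, and that of Mhc 15.5%. Mf was called higher from 11-12h to 14-15h, at an estimated log2 change of 3.91 ± 0.55 SE (adjusted p = 3.96e-09). The log2 ratio of Mf to Mhc within an embryo was −1.61 ± 0.81 (SD, n = 14) at 11-12h and 0.37 ± 0.99 (SD, n = 21) at 14-15h, a difference of 1.98 (two-sided permutation test with 100000 resamples, p = 1e-05, adjusted p = 1.5e-05 over 3 ratios). The 3 ratios and their steps were picked once the levels were known, which p does not take into account. The difference was positive in all 4 libraries, from 1.57 to 2.68, and p is the smallest these resamples can give.

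The thin filament genes include 4 muscle actins. Act57B and Act87E are the actins of the larval body wall muscles. Act57B had medians of 41.4, 42.9, 284 and 1193 cpm at 2-3h, 5-6h, 8-9h and 11-12h, with embryos from 22.2 to 3423, 22.5 to 3272, 49 to 676 and 320.2 to 2713 cpm. Act57B then had medians of 3154, 4383, 1953 and 1243 cpm at 14-15h, 17-18h, 20-21h and 23-24h, with embryos from 1458 to 7221, 1238 to 10865, 29 to 6435 and 40.6 to 3713 cpm. Its median was higher already at 8-9h, where the 25 embryos nearest to their own age lay between 173 and 411 cpm. Act57B was called higher from 8-9h to 11-12h, at an estimated log2 change of 1.98 ± 0.44 SE (adjusted p = 0.000221). It was called higher from 5-6h to 8-9h only with own-age embryos, with an estimated log2 change of 1.16 ± 0.25 SE (adjusted p = 4.86e-05).

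Act87E (chromosome 3R, 13425983 to 13428375) fell between 8-9h and 11-12h and then rose. Act87E had medians of 72.6, 133, 498 and 158 cpm at 2-3h, 5-6h, 8-9h and 11-12h, with embryos from 18.4 to 1773, 59 to 1337, 27.9 to 1029 and 75.3 to 309 cpm. Act87E then had medians of 2000, 1636, 364 and 298 cpm at 14-15h, 17-18h, 20-21h and 23-24h, with embryos from 803 to 5731, 309.6 to 3181, 5.29 to 1362 and 36.7 to 725 cpm. All 14 embryos of 11-12h lay between 75.3 and 309 cpm, below the median of 8-9h, and all 21 of 14-15h lay above them. Act87E was called lower from 8-9h to 11-12h, at an estimated log2 change of −1.38 ± 0.37 SE (adjusted p = 0.00277). Act87E was called higher from 11-12h to 14-15h, at an estimated log2 change of 3.81 ± 0.43 SE (adjusted p = 8.78e-13). The log2 ratio of Act87E to Act57B within an embryo was 0.49 ± 0.86 (SD, n = 27) at 8-9h and −2.62 ± 0.66 (SD, n = 14) at 11-12h, a difference of −3.11 (two-sided permutation test with 100000 resamples, p = 1e-05, adjusted p = 1.5e-05 over the 3 ratios). The difference was negative in each of the 4 libraries, from −3.48 to −2.38. This ratio and its step were picked once the levels were known, which p does not take into account. In the annotation, exons of Act87E overlap those of the antisense gene lncRNA:CR45591, and reads of muscle actins can be shared because their coding sequences are alike, so the assignment of reads between them is uncertain.

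Act79B and Act88F, the actins of adult leg and flight muscle, were near 0 throughout. Act79B had medians of 0.0732, 0.152, 0.337 and 0.38 cpm at 2-3h, 5-6h, 8-9h and 11-12h, with embryos from 0 to 0.651, 0 to 1.12, 0 to 13.7 and 0 to 4.47 cpm. Act79B then had medians of 0.365, 1.45, 0.133 and 0 cpm at 14-15h, 17-18h, 20-21h and 23-24h, with embryos from 0 to 5, 0 to 8.93, 0 to 14.2 and 0 to 5.25 cpm. The highest median of Act79B was at 17-18h, and 51 of the 153 embryos had no count. Act79B was called higher from 5-6h to 8-9h, at an estimated log2 change of 1.88 ± 0.69 SE (adjusted p = 0.0228). With own-age embryos it was called higher again at 17-18h, with an estimated log2 change of 2.07 ± 0.74 SE (adjusted p = 0.0261), and lower at 20-21h, with an estimated log2 change of −3.23 ± 0.83 SE (adjusted p = 0.00194). Act88F had medians of 0, 0.0906, 0.0995 and 0.126 cpm at 2-3h, 5-6h, 8-9h and 11-12h, with embryos from 0 to 1.02, 0 to 11, 0 to 13 and 0 to 3.4 cpm. Act88F then had medians of 0.146, 0.12, 0 and 0 cpm at 14-15h, 17-18h, 20-21h and 23-24h, with embryos from 0 to 3.29, 0 to 5.81, 0 to 3.77 and 0 to 0.558 cpm. Act88F had 519 counts in all embryos together and none in 76 of them, and it was not tested.

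Tm1 and Tm2 encode tropomyosins, and Tm1 also gives cytoplasmic forms outside muscle, which these 3′ counts do not separate. Tm1 had medians of 219, 108, 224 and 843 cpm at 2-3h, 5-6h, 8-9h and 11-12h, with embryos from 79.2 to 3264, 42.4 to 2035, 71.6 to 471 and 336 to 1865 cpm. Tm1 then had medians of 2395, 3002, 2041 and 1621 cpm at 14-15h, 17-18h, 20-21h and 23-24h, with embryos from 1552 to 4072, 1521 to 5051, 15.9 to 3799 and 123 to 2600.1 cpm. The ranges of Tm1 at 11-12h and 14-15h overlapped, with 1865 cpm as the highest embryo of the former and 1552 cpm as the lowest of the latter. Tm1 was called higher from 8-9h to 11-12h, at an estimated log2 change of 1.79 ± 0.33 SE (adjusted p = 9.57e-06). It was called lower from 2-3h to 5-6h with own-age embryos, with an estimated log2 change of −1.17 ± 0.27 SE (adjusted p = 0.000471). Tm2 had medians of 96.8, 94.1, 146 and 1358 cpm at 2-3h, 5-6h, 8-9h and 11-12h, with embryos from 38.8 to 8711, 39.1 to 4499, 54.6 to 1097 and 385 to 3074 cpm. Tm2 then had medians of 5406, 8754, 4264 and 3149 cpm at 14-15h, 17-18h, 20-21h and 23-24h, with embryos from 3357 to 13586, 3031 to 11287, 23.7 to 9488 and 20.8 to 8839 cpm. The ranges of Tm2 at 11-12h and 14-15h did not overlap. Tm2 was called higher from 8-9h to 11-12h, at an estimated log2 change of 2.93 ± 0.47 SE (adjusted p = 2.47e-07).

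The gene up encodes troponin T and wupA encodes troponin I. The median of up was 70.7 cpm at 8-9h, 806 cpm at 11-12h and 4205 cpm at 17-18h, and the gene was called higher from 8-9h to 11-12h with an estimated log2 change of 2.98 ± 0.43 SE (adjusted p = 1.67e-08). wupA had medians of 48.9, 47.2, 50.4 and 647 cpm at 2-3h, 5-6h, 8-9h and 11-12h, with embryos from 24.8 to 1941, 15.6 to 5006, 22.2 to 266 and 211 to 1356 cpm. wupA then had medians of 2501, 3121, 1899.7 and 2396 cpm at 14-15h, 17-18h, 20-21h and 23-24h, with embryos from 868 to 4893, 1757 to 5328, 20.7 to 3836 and 21.8 to 4421 cpm. The highest embryo of wupA at 5-6h was the one with a summed level of 58933 cpm, and the medians of the 3 youngest ages lay between 47.2 and 50.4 cpm. wupA was called higher from 8-9h to 11-12h, at an estimated log2 change of 3.26 ± 0.47 SE (adjusted p = 9.73e-09). wupA was called lower from 5-6h to 8-9h, at an estimated log2 change of −2.42 ± 0.45 SE (adjusted p = 4.96e-06). With own-age embryos that change was −0.76 ± 0.23 SE (adjusted p = 0.00419).

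The 5 troponin C genes, which encode the calcium-binding subunit, had their highest medians at different ages. TpnC73F had medians of 50.8, 50.9, 82.8 and 2649 cpm at 2-3h, 5-6h, 8-9h and 11-12h, with embryos from 20.7 to 12001, 24.7 to 8396, 38.6 to 2897 and 912 to 4342 cpm. TpnC73F then had medians of 6079, 6336, 3339 and 2187 cpm at 14-15h, 17-18h, 20-21h and 23-24h, with embryos from 3313 to 12887, 1984 to 10744, 15.2 to 8528 and 31.7 to 5879.8 cpm. At 11-12h the median of TpnC73F was already 41.8% of its highest. TpnC73F was called higher from 8-9h to 11-12h, at an estimated log2 change of 3.51 ± 0.56 SE (adjusted p = 3.02e-07). TpnC47D had medians of 54.5, 60.2, 118 and 804 cpm at 2-3h, 5-6h, 8-9h and 11-12h, with embryos from 27.9 to 2443, 32.8 to 2827, 36.5 to 464 and 378 to 1413 cpm. TpnC47D then had medians of 1900.1, 2603, 2321 and 1381 cpm at 14-15h, 17-18h, 20-21h and 23-24h, with embryos from 1374 to 3188, 1423 to 3707, 15.8 to 4347 and 18.8 to 3405 cpm. TpnC47D rose at the same step, and its medians at 17-18h and 20-21h lay within the range of either age. TpnC47D was called higher from 8-9h to 11-12h, at an estimated log2 change of 2.48 ± 0.44 SE (adjusted p = 2.78e-06).

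TpnC25D (chromosome 2L, 5216701 to 5219053) was the latest of the family. TpnC25D had medians of 2.85, 1.66, 1.15 and 2.32 cpm at 2-3h, 5-6h, 8-9h and 11-12h, with embryos from 0.643 to 24.8, 0 to 63.5, 0.446 to 6.29 and 0.381 to 8.72 cpm. TpnC25D then had medians of 29.1, 46.4, 94.1 and 76.1 cpm at 14-15h, 17-18h, 20-21h and 23-24h, with embryos from 7.15 to 96.4, 11.7 to 143, 0 to 404 and 0.991 to 298 cpm. At 11-12h no embryo exceeded 8.72 cpm, and the highest embryo of all, with 404 cpm, was at 20-21h. TpnC25D was called higher from 11-12h to 14-15h, at an estimated log2 change of 3.88 ± 0.61 SE (adjusted p = 7.87e-08). With own-age embryos it was called higher once more at 20-21h, with an estimated log2 change of 1.46 ± 0.45 SE (adjusted p = 0.00991). Exons of TpnC25D overlap those of tkv on the other strand.

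TpnC41C and TpnC4 serve mainly the adult muscles. TpnC41C had medians of 0.402, 0.597, 0.896 and 0.96 cpm at 2-3h, 5-6h, 8-9h and 11-12h, with embryos from 0 to 20.8, 0 to 16.2, 0 to 9.27 and 0 to 8.7 cpm. TpnC41C then had medians of 11, 4.63, 0.306 and 0.211 cpm at 14-15h, 17-18h, 20-21h and 23-24h, with embryos from 0.365 to 22.6, 0 to 23.9, 0 to 16.4 and 0 to 45.2 cpm. It had its highest median at 14-15h, although the highest embryo of TpnC41C, at 45.2 cpm, was of 23-24h. TpnC41C was called higher from 11-12h to 14-15h, at an estimated log2 change of 2.94 ± 0.80 SE (adjusted p = 0.00209). TpnC4 had medians of 0.741, 3.56, 2.58 and 0.999 cpm at 2-3h, 5-6h, 8-9h and 11-12h, with embryos from 0 to 25.9, 0 to 16, 0 to 21.2 and 0 to 26.4 cpm. TpnC4 then had medians of 0.721, 0.563, 0.189 and 0.233 cpm at 14-15h, 17-18h, 20-21h and 23-24h, with embryos from 0 to 7.3, 0 to 6.58, 0 to 1.77 and 0 to 2.28 cpm. TpnC4 had its highest median at 5-6h and no count in 33 embryos. TpnC4 was called lower from 17-18h to 20-21h, at an estimated log2 change of −2.13 ± 0.63 SE (adjusted p = 0.00818). When the small-cluster samples were included its change took the opposite sign.

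Of the remaining thin filament gene, sals, which is required for thin filaments to lengthen, the median rose from 1.27 cpm at 8-9h to 5.07 cpm at 11-12h and 9.57 cpm at 17-18h. sals was called higher from 8-9h to 11-12h, at an estimated log2 change of 1.94 ± 0.48 SE (adjusted p = 0.000995).

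**Figure D3:**
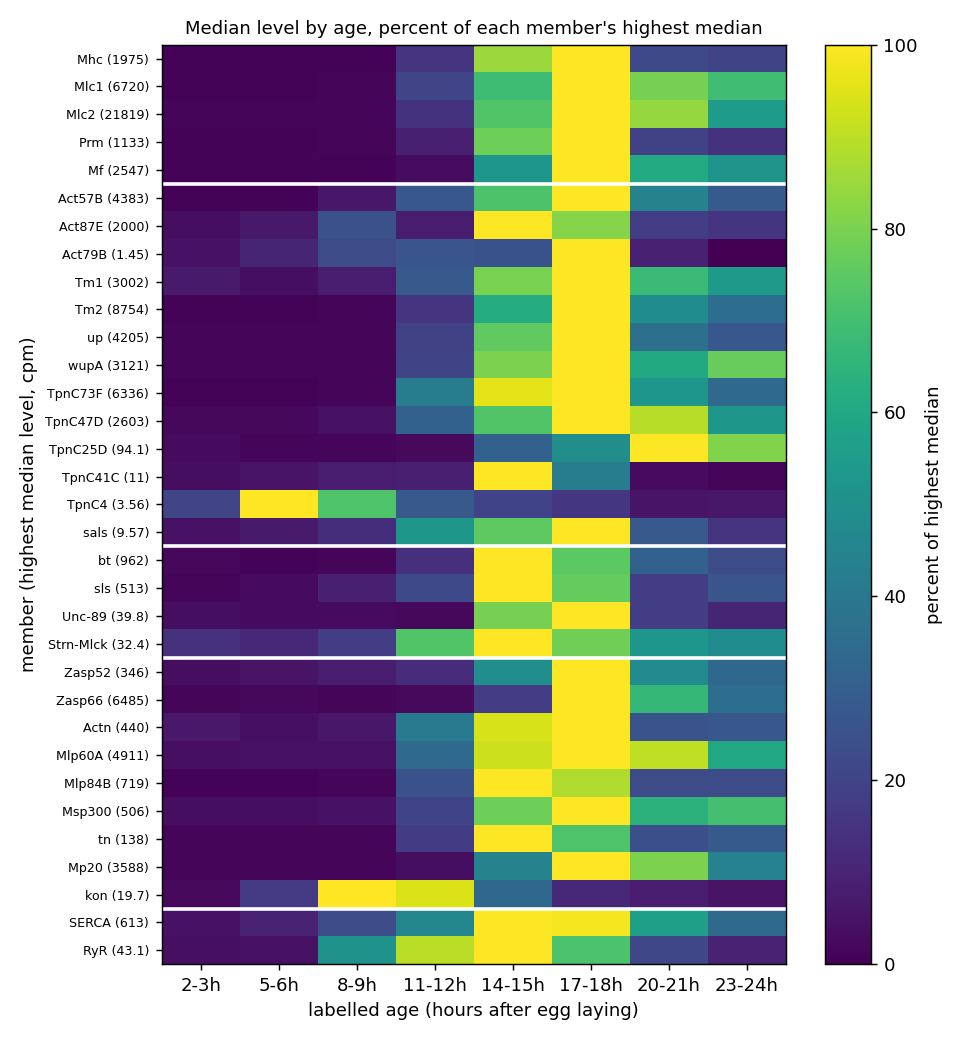
Median level of the 33 tested members at each age as a percentage of the member's own highest median, which stands in parentheses in cpm. White lines separate thick filament, thin filament, giant and kinase-domain, Z-disc, cytoskeletal and attachment, and calcium handling genes. The highest median lies at 14-15h or 17-18h for 30 members, at 5-6h for TpnC4, at 8-9h for kon and at 20-21h for TpnC25D.

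The giant and kinase-domain proteins rose in 2 ways. bt encodes projectin and sls encodes Sallimus, which link filaments to the Z-disc. bt had medians of 22.3, 10.1, 17.2 and 133 cpm at 2-3h, 5-6h, 8-9h and 11-12h, with embryos from 6.96 to 779.8, 2.02 to 689, 6.88 to 112 and 26.3 to 1035 cpm. bt then had medians of 962, 718, 298 and 219 cpm at 14-15h, 17-18h, 20-21h and 23-24h, with embryos from 56.3 to 4330.2, 129 to 3450.2, 2.65 to 4046 and 29.7 to 729.5 cpm. The ranges of bt at neighbouring ages overlapped at every step, in part because single embryos at 14-15h were as low as 56.3 cpm. bt was called higher from 8-9h to 11-12h, at an estimated log2 change of 3.27 ± 0.51 SE (adjusted p = 8.86e-08). sls had medians of 14.4, 44.5, 113 and 513 cpm from 5-6h to 14-15h, and the gene was called higher from 8-9h to 11-12h with an estimated log2 change of 1.95 ± 0.48 SE (adjusted p = 0.000795).

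Unc-89 encodes obscurin, a protein of the M-line at the middle of the sarcomere. Unc-89 had medians of 1.49, 1.17, 1.11 and 0.827 cpm at 2-3h, 5-6h, 8-9h and 11-12h, with embryos from 0.33 to 16.2, 0 to 7.25, 0 to 4.48 and 0 to 5.53 cpm. Unc-89 then had medians of 31.6, 39.8, 7.16 and 4.05 cpm at 14-15h, 17-18h, 20-21h and 23-24h, with embryos from 0.447 to 136, 0 to 110.1, 0 to 159 and 0 to 32.3 cpm. No embryo of 11-12h exceeded 5.53 cpm, whereas 15 of the 21 embryos of 14-15h did. Unc-89 was called higher from 11-12h to 14-15h, at an estimated log2 change of 5.15 ± 0.64 SE (adjusted p = 4.54e-11). This was the largest fitted change of the 33 members over the 7 steps. Unc-89 was called lower from 20-21h to 23-24h, at an estimated log2 change of −1.79 ± 0.55 SE (adjusted p = 0.0467). This last call was not made with limma, without the library term or with embryos thinned to 300000 counts. Strn-Mlck, which encodes Stretchin-Mlck, rose earlier, from a median of 5.85 cpm at 8-9h to 23.6 cpm at 11-12h. Strn-Mlck was called higher from 8-9h to 11-12h, at an estimated log2 change of 1.88 ± 0.44 SE (adjusted p = 0.000465). Exons of Strn-Mlck overlap antisense genes.

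At the Z-disc, Zasp66 and Zasp52 encode related PDZ-domain proteins that bind α-actinin. Zasp66 (chromosome 3L, 8624371 to 8638813) was called higher at 3 consecutive steps, those ending at 11-12h, 14-15h and 17-18h. Zasp66 had medians of 123, 135, 110.2 and 158 cpm at 2-3h, 5-6h, 8-9h and 11-12h, with embryos from 61.3 to 5749.6, 60.3 to 786, 70.4 to 196 and 67.7 to 1959 cpm. Zasp66 then had medians of 1189, 6485, 4319 and 2336 cpm at 14-15h, 17-18h, 20-21h and 23-24h, with embryos from 251 to 8051, 1709.7 to 11613, 37.1 to 9548 and 80.3 to 8441 cpm. At 11-12h the embryo after the highest had 258.3 cpm, and at 14-15h the embryos nearest to 17-18h were the highest. Zasp66 was called higher from 11-12h to 14-15h, at an estimated log2 change of 3.37 ± 0.52 SE (adjusted p = 5.61e-08). Zasp66 was called higher from 14-15h to 17-18h, at an estimated log2 change of 1.42 ± 0.43 SE (adjusted p = 0.0326). With own-age embryos the later rise was 2.79 ± 0.32 SE (adjusted p = 1.02e-12). Zasp52 had medians of 45.6, 170.3 and 346 cpm from 11-12h to 17-18h, and the gene was called higher from 11-12h to 14-15h with an estimated log2 change of 2.43 ± 0.42 SE (adjusted p = 7.91e-07).

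Actn encodes α-actinin, which crosslinks actin at the Z-disc. Its median was 28.8 cpm at 8-9h, 179 cpm at 11-12h, 440.3 cpm at 17-18h and 114 cpm at 20-21h. Actn was called higher from 8-9h to 11-12h, at an estimated log2 change of 2.40 ± 0.38 SE (adjusted p = 1.5e-07). Actn was called lower from 17-18h to 20-21h, at an estimated log2 change of −1.52 ± 0.37 SE (adjusted p = 0.00114). Exons of Actn overlap usp on the same strand, and those reads cannot be told apart.

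The muscle LIM proteins Mlp60A and Mlp84B are further Z-disc proteins. Mlp60A had medians of 205, 222, 225 and 1689 cpm at 2-3h, 5-6h, 8-9h and 11-12h, with embryos from 104 to 6738, 124 to 9918, 148 to 779.8 and 472 to 2716 cpm. Mlp60A then had medians of 4533, 4911, 4440.1 and 2938 cpm at 14-15h, 17-18h, 20-21h and 23-24h, with embryos from 2396 to 8726, 3778 to 7983, 55.3 to 8165 and 101 to 6098 cpm. Mlp60A stayed high at 20-21h, where its median was 90.4% of that at 17-18h. Mlp60A was called higher from 8-9h to 11-12h, at an estimated log2 change of 2.59 ± 0.39 SE (adjusted p = 6.14e-08). Mlp84B had medians of 5.71, 5.89, 10.1 and 182 cpm at 2-3h, 5-6h, 8-9h and 11-12h, with embryos from 1.32 to 283, 1.52 to 309, 2.03 to 66.3 and 9.68 to 366 cpm. Mlp84B then had medians of 719, 635, 166 and 163 cpm at 14-15h, 17-18h, 20-21h and 23-24h, with embryos from 123 to 1073, 192 to 1171, 0 to 977 and 3.96 to 349 cpm. Mlp84B fell back instead, and its median at 20-21h was 23% of its highest. Mlp84B was called higher from 8-9h to 11-12h, at an estimated log2 change of 3.59 ± 0.47 SE (adjusted p = 5.1e-10). Mlp84B was called lower from 17-18h to 20-21h, at an estimated log2 change of −1.38 ± 0.46 SE (adjusted p = 0.0191).

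Msp300 encodes a nesprin that positions muscle nuclei, tn encodes a TRIM protein needed for muscle integrity, and Mp20 a calponin-like protein. Msp300 had medians of 24.1, 103 and 394 cpm from 8-9h to 14-15h, and the gene was called higher from 11-12h to 14-15h with an estimated log2 change of 2.47 ± 0.54 SE (adjusted p = 8.88e-05). For tn these medians were 2.32, 24 and 138 cpm, and the gene was called higher from 8-9h to 11-12h with an estimated log2 change of 3.54 ± 0.45 SE (adjusted p = 1.49e-10). For Mp20 they were 45, 137 and 1599.8 cpm with 3588 cpm at 17-18h, and the gene was called higher from 11-12h to 14-15h with an estimated log2 change of 3.35 ± 0.51 SE (adjusted p = 2.74e-08).

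kon encodes Kon-tiki, a transmembrane protein with which growing myotubes find their attachment sites and which is also used outside muscle. kon had medians of 0.482, 3.31, 19.7 and 18.5 cpm at 2-3h, 5-6h, 8-9h and 11-12h, with embryos from 0 to 13.5, 0 to 27.3, 0.585 to 50 and 0.381 to 66.9 cpm. kon then had medians of 6.55, 2.22, 1.6 and 1.01 cpm at 14-15h, 17-18h, 20-21h and 23-24h, with embryos from 0 to 31.9, 0 to 53.1, 0 to 20.9 and 0 to 8.92 cpm. It was highest at 8-9h and 11-12h, when most members were still low, and embryos of all ages overlapped. kon was called higher from 5-6h to 8-9h, at an estimated log2 change of 1.16 ± 0.44 SE (adjusted p = 0.0299). With own-age embryos it was called higher at 5-6h and lower at 14-15h, where the change was −1.42 ± 0.54 SE (adjusted p = 0.0311).

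SERCA pumps calcium back into the sarcoplasmic reticulum and RyR releases it. SERCA had medians of 29, 62.1, 146 and 282 cpm at 2-3h, 5-6h, 8-9h and 11-12h, with embryos from 18.5 to 499, 14.6 to 323, 30.6 to 439.9 and 61.9 to 613 cpm. SERCA then had medians of 613, 604, 346 and 212 cpm at 14-15h, 17-18h, 20-21h and 23-24h, with embryos from 73.3 to 1519, 174 to 1464, 7.94 to 1299 and 30.7 to 595 cpm. The medians of SERCA were higher at each age up to 14-15h than at the age before, with ranges that overlapped at each of these steps. SERCA was called higher from 11-12h to 14-15h, at an estimated log2 change of 1.09 ± 0.33 SE (adjusted p = 0.00526). With own-age embryos this was 0.58 ± 0.25 SE (adjusted p = 0.0671), below the fold required. RyR had medians of 1.83, 1.85, 22.1 and 38.6 cpm at 2-3h, 5-6h, 8-9h and 11-12h, with embryos from 0.494 to 37.8, 0 to 20.7, 0.781 to 181 and 9.11 to 147 cpm. RyR then had medians of 43.1, 30.8, 9.2 and 4.17 cpm at 14-15h, 17-18h, 20-21h and 23-24h, with embryos from 1.16 to 214, 4.02 to 141, 0 to 69.5 and 0 to 24.7 cpm. RyR had its largest change 1 step before most of the members. RyR was called higher from 5-6h to 8-9h, at an estimated log2 change of 2.48 ± 0.46 SE (adjusted p = 5.85e-06). In own-age embryos that change was 2.79 ± 0.43 SE (adjusted p = 2.36e-08).

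**Figure D4:**
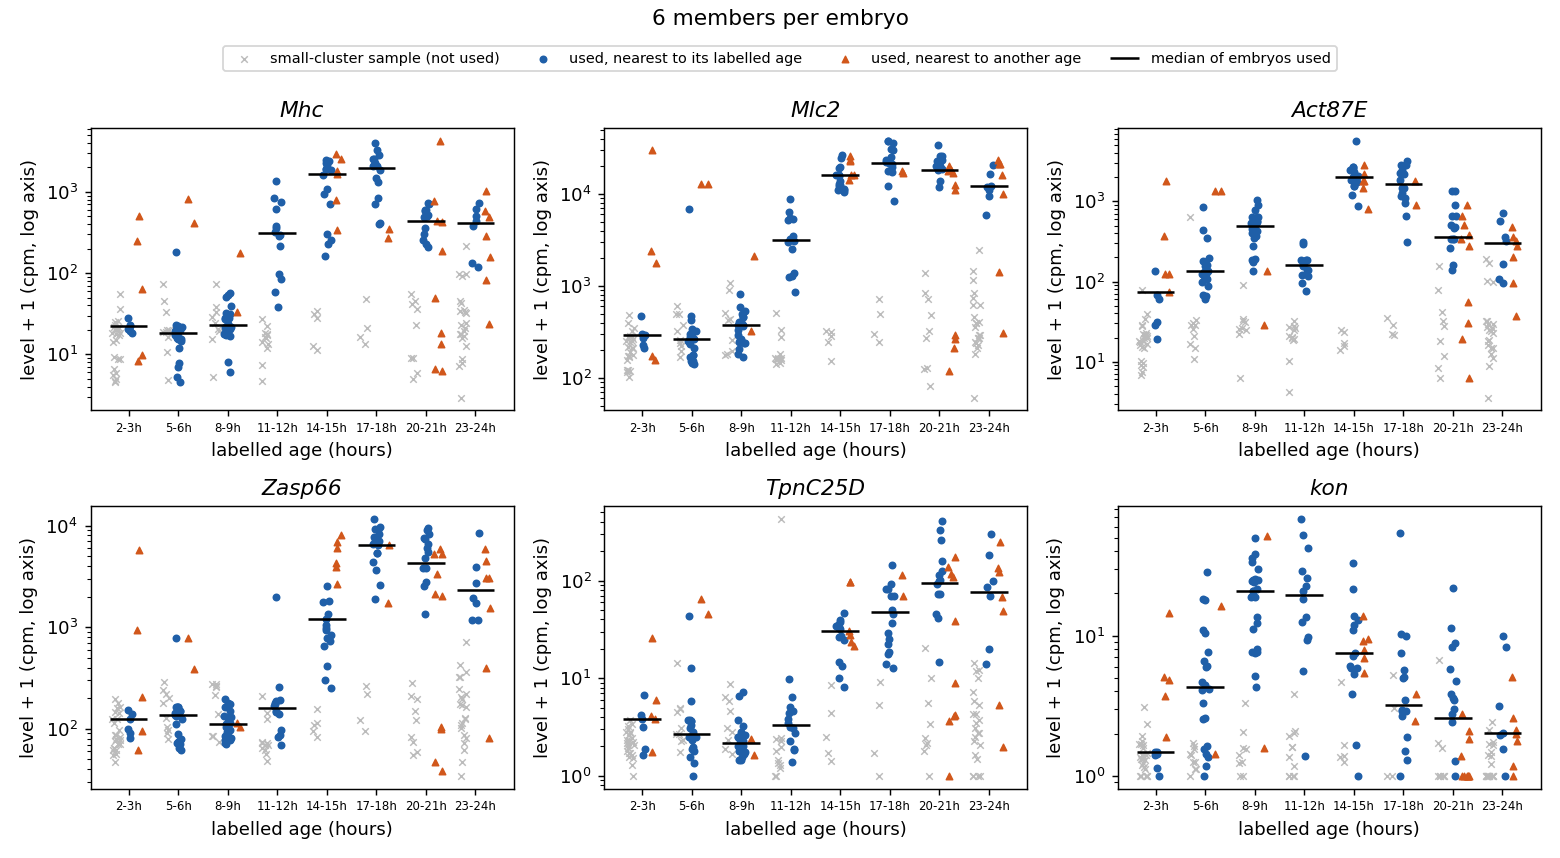
Level of Mhc, Mlc2, Act87E, Zasp66, TpnC25D and kon in each sample by labelled age (cpm + 1, log axis), with symbols for samples and lines for medians as in the plot of summed levels. Act87E falls from a median of 498 cpm at 8-9h to 158 cpm at 11-12h while Mhc and Mlc2 rise, Zasp66 rises until 17-18h, TpnC25D until 20-21h, and kon is highest at 8-9h.

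The ages of the highest medians summarise these courses. Of the 33 tested members, 21 had their highest median at 17-18h and 9 at 14-15h, whereas 9.6% and 15% of all genes tested peaked at these ages. The age at which the median first reached 50% of its highest was 14-15h for 23 members and 17-18h for 4 (Act79B, Zasp52, Zasp66 and Mp20). It was 11-12h for sals and Strn-Mlck, 8-9h for RyR and kon, 5-6h for TpnC4 and 20-21h for TpnC25D. With own-age embryos, 21 members reached it at 14-15h and 7 at 17-18h, and the highest median was at 17-18h for 21, at 14-15h for 7 and at 20-21h for 3.

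The members parted at the end of embryogenesis. Act87E, Actn, Mhc, Mlp84B, Prm and TpnC4 were called lower from 17-18h to 20-21h, and with own-age embryos also Act57B, Act79B, RyR, sls, tn and Zasp52. Act87E was called lower from 17-18h to 20-21h, at an estimated log2 change of −1.73 ± 0.34 SE (adjusted p = 6.34e-05). At the same step the fitted changes of Mlc1, Mlp60A, Mp20 and TpnC47D lay between −0.15 and 0.03 on the log2 scale. The log2 ratio of Mhc to Mlc2 within an embryo was −4.03 ± 0.98 (SD, n = 18) at 17-18h and −5.29 ± 1.27 (SD, n = 24) at 20-21h, a difference of −1.26 (two-sided permutation test with 100000 resamples, p = 0.00112, adjusted p = 0.00112 over the 3 ratios). With own-age embryos it was −3.81 ± 0.77 (SD, n = 16) and −5.58 ± 0.76 (SD, n = 14). The difference of means was then −1.77 (permutation test, p = 1e-05, adjusted p = 1e-05). It was negative in the 3 libraries with at least 2 embryos at both ages, with −0.73 in E1_1, −1.85 in E1_2 and −0.26 in E2. Mhc, Mlc2 and this step were picked for a ratio once the levels were known, which p does not take into account.

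Genes known mainly from adult flight and leg muscle are Act88F, TpnC4, fln, TpnC41C and Act79B. fln encodes flightin, a thick filament protein of flight muscle, and gave 315 counts in the 153 embryos together. fln had medians of 0.0732, 0, 0 and 0 cpm at 2-3h, 5-6h, 8-9h and 11-12h, with embryos from 0 to 1.16, 0 to 1.6, 0 to 0.813 and 0 to 0.1 cpm. fln then had medians of 0.107, 0.0498, 0.11 and 0 cpm at 14-15h, 17-18h, 20-21h and 23-24h, with embryos from 0 to 2.16, 0 to 1.98, 0 to 2.35 and 0 to 0.761 cpm. In 89 embryos fln had no count, and its medians did not exceed 0.11 cpm. Of the 5 genes, none had a median above 11 cpm at any age, while those of Act57B and Act87E reached 4383 and 2000 cpm.

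Other genes of muscle were taken from lists. Of 7 further sarcomere genes, 5 were tested, 1 was called higher at 8-9h (11.3% of all genes) and 2 at 11-12h (15.2%). The largest change was that of Fhos, a formin, at 11-12h (log2 fold change 2.00 ± 0.49 SE, adjusted p = 0.00089). With own-age embryos Fhos was called lower at 17-18h, with an estimated log2 change of −1.82 ± 0.48 SE (adjusted p = 0.00189). Of 9 genes for calcium channels, membrane coupling and energy supply, 6 were tested. At 8-9h 1 was called higher (11.3% of all genes), and at 14-15h 1 lower (7.9%). At 11-12h 2 were higher (jp and Amph, 15.2%) and 1 lower (Orai, 6.85%). At 20-21h 1 was higher (Orai, 12.4%) and 1 lower (Amph, 5.22%). With own-age embryos 3 were higher at 11-12h (17.1%), 1 lower at 5-6h (8.67%) and 0 higher at 20-21h (10.4%). Argk1, arginine kinase, rose at 8-9h (log2 fold change 3.89 ± 0.39 SE, adjusted p = 1.97e-15) and was lower at 14-15h (log2 fold change −1.20 ± 0.41 SE, adjusted p = 0.0157), and jp, junctophilin, rose at 11-12h (log2 fold change 3.57 ± 0.49 SE, adjusted p = 2.36e-09).

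All 11 muscle attachment genes were tested, and 3 were called higher at each of the 8-9h (11.3% of all genes), 11-12h (15.2%) and 14-15h (20.5%) steps. At 14-15h 2 were called lower (7.9%), sr (log2 fold change −1.41 ± 0.55 SE, adjusted p = 0.037) and wb (log2 fold change −1.20 ± 0.43 SE, adjusted p = 0.0215), and 1 was lower at each of the 17-18h (wb, 2.81%) and 20-21h (if, 5.22%) steps. The largest rise was that of sr, a transcription factor of tendon cells, at 8-9h (log2 fold change 2.80 ± 0.51 SE, adjusted p = 3.73e-06), and the largest fall that of the laminin gene wb at 17-18h (log2 fold change −1.66 ± 0.42 SE, adjusted p = 0.00682). With own-age embryos, 4 attachment genes were called lower at 20-21h (8.57% of all genes) and 2 at 17-18h (10.6%). Higher calls were then 1 at 5-6h (6.36%), 4 at 8-9h (14.6%), 2 at 14-15h (15.9%), 1 at 17-18h (10.1%) and 2 at 23-24h (7.47%). Of 7 myogenic regulators, 6 were tested and 4 were called higher at 8-9h (11.3% of all genes), Mef2 among them (log2 fold change 1.48 ± 0.29 SE, adjusted p = 1.47e-05). Lower calls were 1 at 5-6h (twi, 5.76%), 1 at 11-12h (lmd, 6.85%) and 2 at 14-15h (vg and lmd, 7.9%). The myoblast fusion regulator lmd fell most, at 14-15h (log2 fold change −2.92 ± 0.61 SE, adjusted p = 4.07e-05). twi, which specifies mesoderm, was the regulator called higher at 20-21h (log2 fold change 1.73 ± 0.50 SE, adjusted p = 0.00591, beside 12.4% of all genes). At this age 4 of the 24 embryos were nearest to 2-3h. With own-age embryos, which leave out these 4 among others, 1 regulator was called higher at the same step (10.4% of all genes). The part of these 4 embryos alone was not tested. The median log2 fold change of the regulators was 1.12 at 8-9h and −0.75 and −0.88 at the next pair of steps, at which that of the members was 1.98 and 2.00.

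Of 5 cytoskeletal genes outside muscle, 1 was called lower at 5-6h (5.76% of all genes), and at 14-15h 1 was called higher (20.5%) and 1 lower (7.9%). The largest changes were those of the calmodulin gene Cam, lower at 5-6h (log2 fold change −1.75 ± 0.40 SE, adjusted p = 0.00101) and higher at 14-15h (log2 fold change 1.59 ± 0.42 SE, adjusted p = 0.00143). Act42A, a cytoplasmic actin, was lower at 14-15h (log2 fold change −1.03 ± 0.27 SE, adjusted p = 0.000996), where Act57B and Act87E were higher.

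Embryos of the same age were compared for whether their members moved together. At 11-12h, Mhc and SERCA correlated over the 14 embryos on log2(cpm + 1) with Pearson's r = 0.76 (permutation p = 0.00196, adjusted p = 0.00784 over 8 relations) and Spearman's rho = 0.73 (permutation p = 0.0043, adjusted p = 0.0172). Without the 2 embryos farthest from the median of Mhc, r was 0.63, and no library held 6 embryos of this age. At 14-15h the same pair had r = 0.84 over 21 embryos (permutation p = 2e-05, adjusted p = 0.00016) and rho = 0.80 (permutation p = 4e-05, adjusted p = 0.00032). Without the 2 farthest embryos r was 0.76, and within libraries it was 0.95 in E1_1 (8 embryos) and 0.88 in E1_2 (6 embryos).

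For Mlc1, wupA and Act5C no relation with Mhc passed the test after adjustment, over the 14 embryos used of 11-12h or the 21 of 14-15h. Whether these relations differ from that of SERCA was not tested. At 14-15h, Mhc and Mlc1 had r = −0.31 (permutation p = 0.178, adjusted p = 0.237) and rho = −0.33 (permutation p = 0.148, adjusted p = 0.197), with r = −0.25 without the 2 farthest embryos and −0.35 and −0.72 within E1_1 and E1_2. Mhc and wupA had r = −0.22 (permutation p = 0.333, adjusted p = 0.381) and rho = −0.30 (permutation p = 0.182, adjusted p = 0.208), with −0.27 without the 2 embryos and −0.35 and −0.58 within libraries. At 11-12h these pairs had r = 0.43 and 0.57 (adjusted p = 0.197 and 0.092, permutation tests) and rho = 0.43 and 0.53 (adjusted p = 0.197 and 0.144), with r = 0.23 and 0.48 without the 2 embryos. The cytoplasmic actin Act5C gave r = −0.03 at 11-12h and 0.42 at 14-15h (adjusted p = 0.923 and 0.118, permutation tests) and rho = −0.07 and 0.33 (adjusted p = 0.809 and 0.197). Without the 2 embryos its r was 0.10 and 0.09, and at 14-15h it was 0.91 within E1_1 and 0.33 within E1_2. With the 15 own-age embryos of 14-15h, Act5C had r = 0.70 (permutation p = 0.0056, adjusted p = 0.0149) and rho = 0.48 (permutation p = 0.0734, adjusted p = 0.147). Without the 2 farthest embryos r was 0.40, and within E1_1 it was 0.88. The part of the 2 embryos in this relation was not tested. In the same 15 embryos r was 0.87 for SERCA, −0.38 for Mlc1 and −0.34 for wupA, and all 14 embryos of 11-12h were own-age embryos.

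The spread between embryos was described as the distance of each gene from its mean at that age, on normalised and library-corrected log2 values. This distance was divided by the SD expected from the gene's mean over all ages. That SD was fitted over embryos of all ages, so it includes changes between ages, and the same value was used at every age. Only the adjustment of the SD for expression level was taken from the study's methods, and the distance per embryo was defined for this description. For each embryo the median of this distance over the 33 members was set beside that over all 9606 genes, with no test. At 8-9h it was 0.486 ± 0.211 for the members and 0.334 ± 0.09 for all genes (mean ± SD over 27 embryos). At 11-12h the values were 0.632 ± 0.325 and 0.356 ± 0.0777 (n = 14), and at 17-18h 0.529 ± 0.211 and 0.407 ± 0.0665 (n = 18). The mean of the members was above that of all genes at all 8 ages. With embryos thinned to 300000 counts it was instead below that of all genes at 5 of the 8 ages, with 0.573 ± 0.151 beside 0.655 ± 0.0731 at 11-12h, 0.448 beside 0.738 at 14-15h, 0.374 beside 0.72 at 17-18h, 0.74 beside 0.766 at 20-21h and 0.561 beside 0.694 at 23-24h.

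The largest distances, 0.947 ± 0.712 at 2-3h (n = 11), 0.853 ± 0.772 at 5-6h (n = 24) and 0.986 ± 0.696 at 20-21h (n = 24), fell at ages that hold embryos nearest to distant ages. With own-age embryos they were 0.325 ± 0.118, 0.528 ± 0.528 and 0.549 ± 0.19, and 11-12h, at 0.649 ± 0.344, was then the age with the highest value. At 23-24h, which holds 2 embryos nearest to 2-3h, the distance was 0.719 ± 0.308 (n = 14), and 0.638 ± 0.194 with own-age embryos. Among the members the gene with the highest adjusted SD at 11-12h was Mlc2, with 1.68, and that with the lowest was Unc-89, with 0.212. Normalised log2 values below 0, and those of counts of 0, had been set to 0. Unc-89 had a median below 1 cpm at 11-12h, so a low spread and this floor cannot be told apart for it. At 5-6h the adjusted SD of Act79B was 0.

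**Figure D5:**
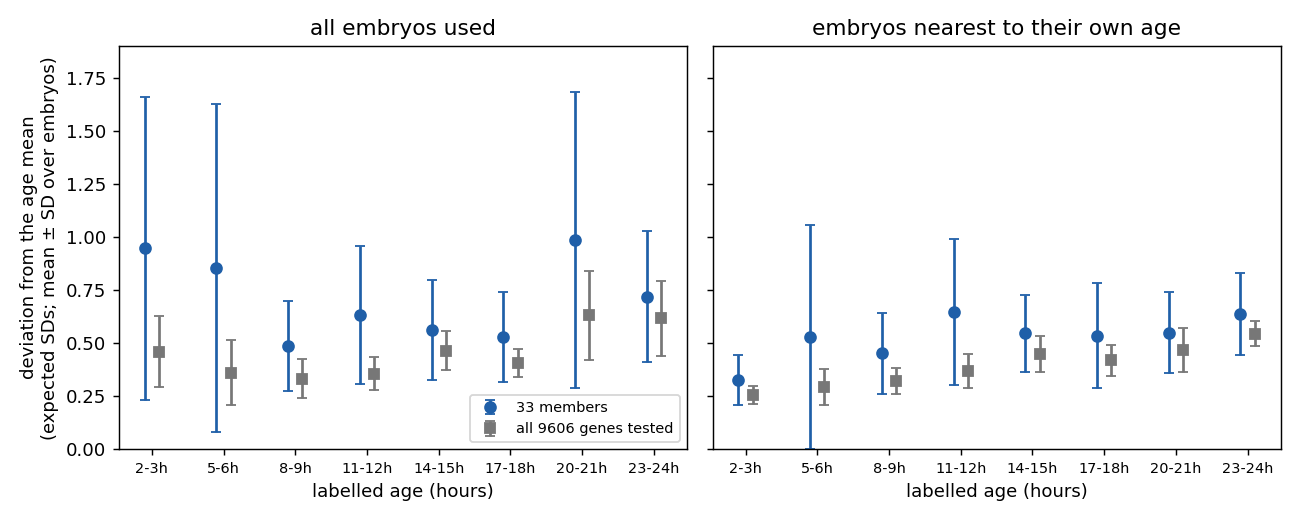
Distance of an embryo from the mean of its age, in expected SDs, as the median over the 33 members (blue circles) or over all 9606 genes tested (grey squares), shown as mean ± SD over embryos at each age. The left panel holds all embryos used and the right panel those nearest to their own age, where the value of the members at 20-21h is 0.549 in place of 0.986.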

How the data were processed

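The deposited table holds raw counts per gene for 288 embryos, which the authors made by mapping 3′ end reads with STAR to BDGP6 and counting them on genes, without normalization. The counts were analysed as deposited. Gene symbols came from Ensembl release 115 (BDGP6.54), which matched 17560 of 17698 identifiers; the others held 1.43% of the counts. Unc-89 is listed there as Obsc. zip, Ca-beta and nos were not used here.

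Samples needed 300000 counts on protein-coding genes and 4500 detected genes, after the study's limits. The small cluster was delimited at dimension 1 below 0 and dimension 2 above 0 of a scaling that left out the members. Genes needed a mean above 1 cpm, which kept 9606. An embryo's nearest age was the highest Spearman correlation of its non-member genes with the mean of each age, itself left out.

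Neighbouring ages were compared in 1 fit of all 8 ages with library as a covariate (edgeR 4.0.16, TMM, quasi-likelihood test, R 4.3.3). Alternatives used DESeq2 1.42.0, limma 3.58.1 with ComBat (sva 3.50.0), other sample sets, other filters and embryos thinned to 300000 counts. The calculations were tested on simulated data. Depths of 377740 to 24787342 counts leave genes near 1 cpm with few counts.

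Members and lists were chosen with earlier results of these data known. By rule, values by age are given for the member with the highest mean cpm of each role, actins, troponin C genes, adult isoforms, Tm1, kon and the 2 largest called changes up and down at each step. Of the other lists, the rule named the largest called changes. Chosen after their values were seen were jp, Amph, Orai, Mef2, Act42A, vg, if and the changes of sr and wb at 14-15h. The values of Act57B and Act87E set beside the adult isoforms were also chosen after they were seen. No sequence is shown.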

Additional observations from a re-analysis of the deposited data

Results flagged for a closer look

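Samples left out of the comparisons still held counts of the members, above what a count of 0 allows. The 97 small-cluster samples, which come from all 8 ages, had a median summed level of 1603 cpm, and the highest of them had 8875 cpm. In the used embryos this median was 1540 cpm at 2-3h and 90561 cpm at 17-18h. By library the medians of the small cluster were 1343 cpm in E1_1, 1589 cpm in E1_2, 2138 cpm in E2 and 1085 cpm in E3. The source of this level was not tested. The 38 samples below the limits on depth had a median summed level of 21490 cpm, with samples from 942 to 83735 cpm.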

How the results depend on the processing

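Of the 14 counts of members called (7 steps, 2 directions), 110 of 140 recalculations stayed within 1.5 times the count reported. Shares of all genes are given below for own-age embryos only. The other counts therefore do not show whether the members differed from all genes. With the small-cluster samples included, 3 members were called higher at 5-6h, 10 lower at 8-9h and 24 lower at 23-24h, an age at which 23 of 37 samples lie in that cluster, and the log2 fold change of TpnC4 at 20-21h was 0.58. With only the embryos nearest to their own age, 2 were called higher at 5-6h (6.36% of all genes). At 8-9h 5 were higher (14.6%) and 3 lower (16.6%). At 14-15h 1 was lower (9.34%), and at 17-18h 6 were higher (10.1%). At 20-21h 1 was higher (10.4%) and 12 lower (8.57%), and at 23-24h 3 were lower (4.99%). Quantile normalisation with ComBat and limma gave 1 higher and 0 lower at 5-6h, 3 lower at 8-9h, 1 lower at 14-15h, 19 lower at 20-21h and 0 lower at 23-24h. Without the library term 3 were lower at 5-6h, 2 higher at 17-18h, 12 lower at 20-21h and 0 lower at 23-24h. Without the filter on low counts 2 were lower at 11-12h. With embryos thinned to 300000 counts, 0 were lower at 5-6h, 0 higher and 8 lower at 8-9h, 0 lower at 11-12h, 15 higher at 14-15h, 0 higher at 17-18h, 1 lower at 20-21h and 0 lower at 23-24h; the cause of these changes was not tested. Of 297 recalculated log2 fold changes of single members at their largest step, 279 kept direction and call, 17 lost the call and 1, that of TpnC4, took the opposite sign. DESeq2 size factors moved the median of all genes by more than 0.1 at the 8-9h, 11-12h, 14-15h and 20-21h steps, to 0.10, 0.17, 0.12 and 0.09. The sample whose labels give 2 ages changed no count by more than 1.5 times. Own-age embryos gave r = 0.70 for Mhc and Act5C at 14-15h, past the threshold, and moved no other of the 8 correlations across it; that alternative was chosen after seeing the data. The tested members with the fewest counts over the embryos used were Act79B with 1173, TpnC4 with 3197, TpnC41C with 4912 and sals with 5266. No paired analysis was possible because the replicate numbers only name embryos and embryos of different ages are not related.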

Other observations

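Among the small-cluster samples, TpnC25D had a level of 426 cpm in replicate 21 of 11-12h (library E2), while the next highest small-cluster sample had 19.35 cpm. The summed level of the members in that replicate was 2138 cpm. This gene and sample were singled out after the values were seen.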
